A study of Mus musculus with 8 samples.

Results

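The genes described here are 8 transcription factors that set the basal or the differentiated state of keratinocytes: Trp63, Grhl1, Grhl3, Ovol1, Zfp750, Prdm1, Maf and Cebpa. They were taken by symbol from a table of 19457 genes, and all 8 had a row and passed the filter on low levels, which left 11870 genes for testing. The table comes from RNA sequencing of mouse skin keratinocytes in primary culture, collected while the cultures were still subconfluent. The 4 control libraries are wild-type (WT), and 4 come from animals with the HOIL1 ΔRING1 genotype (labelled HdR), whose HOIL-1L protein lacks its first RING domain. HOIL-1L, the product of Rbck1, belongs to LUBAC, the ligase complex that builds linear ubiquitin chains in TNF and NF-κB signalling. Neither group carries any other allele or received any agent, as far as the labels say. Strain, age and the number of animals behind the libraries were not given in the sources used here, so p-values measure only the spread between these libraries, which may be technical.

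The epidermis renews itself from a basal layer of dividing keratinocytes that express keratins 5 and 14. Cells that leave this layer switch on keratins 1 and 10 and later the proteins of the cornified envelope. p63, the product of Trp63, is the master factor of the epidermal lineage and keeps the basal state. The other factors act largely downstream of it or later: ZNF750 (Zfp750 in the mouse) is a direct p63 target that represses basal genes and promotes late ones, the grainyhead-like factors GRHL1 and GRHL3 drive barrier and desmosome genes, and OVOL1 helps progenitors stop dividing. C/EBPα, c-MAF and BLIMP1, the product of Prdm1, also promote exit from the basal state or terminal differentiation.

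The levels below are coverage, the aligned bases summed over a gene, scaled to aligned bases per megabase of a library's normalised total (per Mb). Log2 fold changes are HdR minus WT on the log2(level + 1) scale with their SE. Adjusted p values are from limma with Benjamini-Hochberg adjustment over all 11870 genes, and a gene is called at an adjusted p under 0.05.

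The WT libraries held 4.78 to 5.43 Gb of aligned bases and the HdR libraries 2.31 to 4.31 Gb, so every HdR library was shallower and depth cannot be told apart from genotype. The lowest value of any of the 8 factors in any library, that of Prdm1 in HdR 4, still amounted to about 418 read-pair equivalents. Rbck1, the gene with the altered allele, lay between 84.5 and 91.5 per Mb in WT and between 41.1 and 45.2 in HdR, so no library went against its label. The defining keratin genes of cultured keratinocytes were abundant, Krt5 at 16498 per Mb or more and Krt14 at 15807 or more in every library. Of all genes tested, 45% were called, 23.8% lower and 21.2% higher in HdR, so a call on its own is common in this comparison. With upper-quartile scaling 2278 genes were lower and 3113 higher, against 2829 and 2517. On the first principal component, which held 67.1% of the variance, WT 4 was the WT library nearest to HdR, at 11.3 against 17.8 to 20.3 for WT 1 to 3. The log2 fold changes of the 8 factors are therefore also given without WT 4. Where WT 4 was the lowest WT library, leaving it out raises the WT mean. A lower difference was then fixed by the choice and is no further support.

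Of the 8 factors, 6 were lower in HdR (75%, against 23.8% of all genes tested), none was higher (against 21.2%) and 2 were not called. The factors that fell were Ovol1, Zfp750, Cebpa, Grhl1, Maf and Grhl3. In each of these 6, every HdR library lay below every WT library, as in 21.3% of all genes tested, and in none did HdR lie above, as in 19.8%. The median log2 fold change of the 8 was -0.39, against -0.01 over all genes tested. Trp63, the basal factor, and Prdm1 had overlapping groups and positive, uncalled differences. The factors and the gene lists used below were chosen with earlier results of these data known, so these counts are descriptions.

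**Figure D1:**
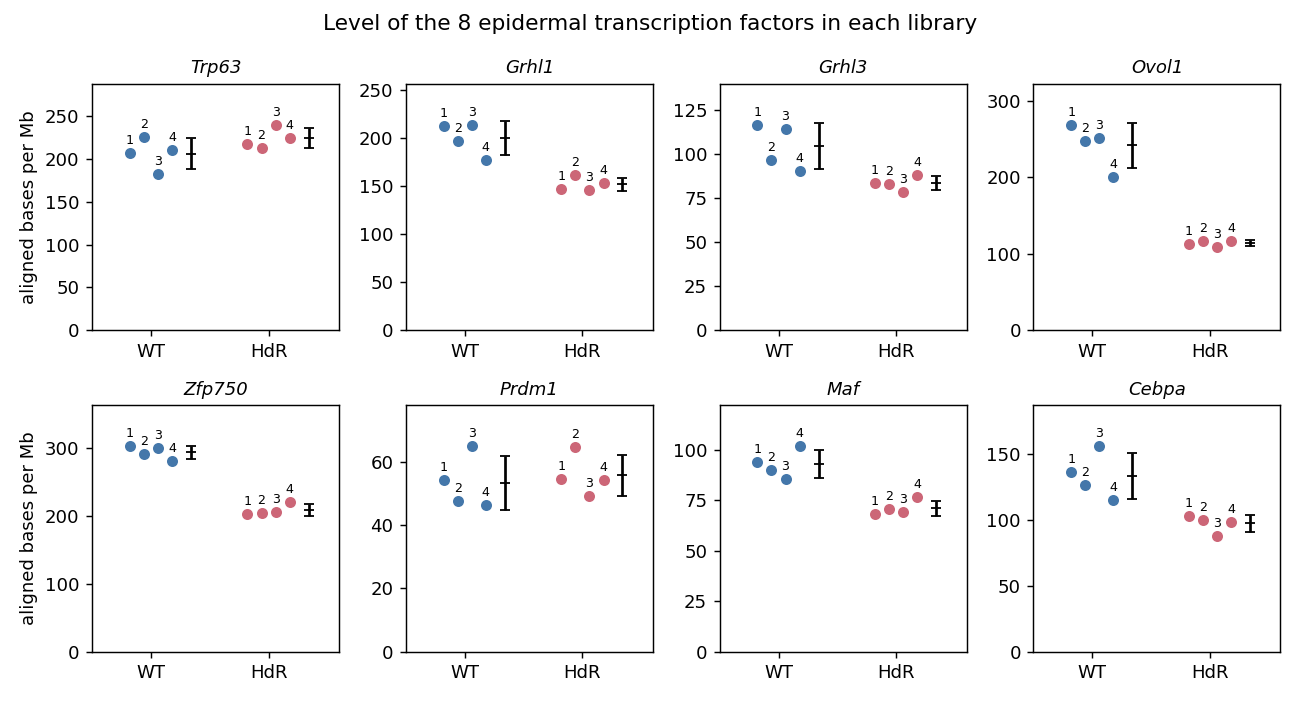
Level of each factor in aligned bases per Mb (vertical axes start at 0) in the 4 WT (blue) and 4 HdR (red) libraries, numbered by replicate, with the mean and SD as black bars. The groups are separate for Grhl1, Grhl3, Ovol1, Zfp750, Maf and Cebpa and overlap for Trp63 and Prdm1, and WT 4 is the lowest WT library in 6 panels.

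RefSeq promoter windows (GRCm38.p6, 250 bases before to 50 after a transcription start) were at hand for 4 of the 8 factors. These 4 are shown because they had a window: Grhl1, Grhl3 and Cebpa, which fell, and Prdm1, which was not called. Capitals mark every match, on either strand, to a KLF-type GC box (CCNCNCCC) or a loose AP-1-type pattern that allows any middle base (TGANTCA). The windows are chr12:24572037-24572336 on the plus strand (Grhl1, the first of its 2 windows), chr4:135573583-135573882 on the minus strand (Grhl3), chr7:35119043-35119342 on the plus strand (Cebpa) and chr10:44458699-44458998 on the minus strand (Prdm1), each printed 5′ to 3′ along its gene.
Grhl1: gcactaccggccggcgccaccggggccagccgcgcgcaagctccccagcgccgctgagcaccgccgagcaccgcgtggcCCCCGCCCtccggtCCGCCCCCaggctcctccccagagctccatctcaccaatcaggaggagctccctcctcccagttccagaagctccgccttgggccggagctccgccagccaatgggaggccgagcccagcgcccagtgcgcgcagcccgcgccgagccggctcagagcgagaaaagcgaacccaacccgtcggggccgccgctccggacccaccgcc
Grhl3: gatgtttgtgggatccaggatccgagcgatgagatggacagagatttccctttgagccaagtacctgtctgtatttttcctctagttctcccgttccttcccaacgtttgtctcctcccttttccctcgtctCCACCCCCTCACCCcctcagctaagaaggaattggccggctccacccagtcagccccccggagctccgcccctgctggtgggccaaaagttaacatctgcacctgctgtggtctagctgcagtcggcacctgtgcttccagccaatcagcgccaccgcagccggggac
Cebpa: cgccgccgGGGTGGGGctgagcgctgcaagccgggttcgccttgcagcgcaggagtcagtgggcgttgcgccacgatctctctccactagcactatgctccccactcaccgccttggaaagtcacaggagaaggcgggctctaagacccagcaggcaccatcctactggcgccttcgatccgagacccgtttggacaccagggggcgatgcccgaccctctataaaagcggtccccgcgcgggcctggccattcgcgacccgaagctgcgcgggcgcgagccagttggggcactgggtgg
Prdm1: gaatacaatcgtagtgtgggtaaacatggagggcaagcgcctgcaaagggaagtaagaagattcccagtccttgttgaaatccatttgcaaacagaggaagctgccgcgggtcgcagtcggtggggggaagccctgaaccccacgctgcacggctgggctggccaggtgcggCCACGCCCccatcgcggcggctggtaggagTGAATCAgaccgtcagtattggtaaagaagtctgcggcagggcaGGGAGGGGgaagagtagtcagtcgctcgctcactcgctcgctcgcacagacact

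Each of these 4 windows held a KLF-type match, as did 49.7% of all 32544 distinct promoter windows of the same length. Only Prdm1 among the 4 held a match to the loose AP-1-type pattern, 48 bases before its start, against 7.79% of all windows. Its open middle base is an A. None of the 4 genes had a match to the GRHL site AACNGGTT (2.09% of all windows), the C/EBP site TTGCNNAA (10.8%) or the OVOL1 core CCGTTA (2.76%). The NF-κB consensus (8.49% of all windows) and the p53-family decamer consensus, which p63 also binds (8.36%), were likewise without a match. The share of G and C was 75.3% in the Grhl1 window shown and 51.3% in its second window, which is not shown, 58.3% in Grhl3, 67.3% in Cebpa and 59.7% in Prdm1, beside a median of 53% over all windows. These matches are letter patterns in a short window and say nothing of whether a factor binds there. For Trp63, Ovol1, Zfp750 and Maf no promoter sequence is shown.

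Trp63 (chromosome 16, 25683763 to 25892102, plus strand, GRCm38) was at 207.1, 226.1, 182.4 and 210.7 per Mb in WT 1 to 4 and at 218.2, 213.4, 240.4 and 225.3 in HdR 1 to 4. The HdR values lay in or above the upper part of the WT range, and the groups overlapped. The log2 fold change was 0.12 ± 0.058 (limma adjusted p = 0.107), with a 95% confidence interval of -0.0043 to 0.25. That interval does not reach a fall of the size seen in the 6 factors below. The size of the difference rests on single libraries. Without WT 3, the lowest WT library, it was 0.06 (limma adjusted p = 0.254), and without HdR 3, the highest HdR library, 0.09 (0.258). Without WT 2, the highest WT library, it was 0.17 and called higher (0.0208), and without WT 4 it was 0.13 (0.126). It was also called with upper-quartile scaling (0.16, adjusted p = 0.0336). Trp63 has 3 annotated starts of protein-coding transcripts in GENCODE vM21. Coverage summed over the gene cannot tell its TA form from the ΔN form that basal keratinocytes mainly use.

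Zfp750 (chromosome 11, 121510978 to 121519333, minus strand) encodes a zinc finger factor that p63 induces as differentiation begins. It was at 302.8, 291.6, 300.1 and 281.8 per Mb in WT 1 to 4 and at 203.5, 204.4, 206.5 and 221.3 in HdR 1 to 4. The gap between the lowest WT and the highest HdR library was far wider than the spread within either group. The log2 fold change was -0.49 ± 0.038 (adjusted p = 2.79e-08), and the mean HdR level was 28.9% below the mean WT level. On the log2 scale WT 4 lay 0.16 of the distance between the mean of WT 1 to 3 and the HdR mean, and without it the log2 fold change was -0.51. Zfp750 was 1 of 2 factors that passed a test for changes beyond 1.2-fold (treat in limma, adjusted p = 0.000263), a threshold that 4.58% of all genes passed downwards. The gene lies within the span of Tbcd on the other strand, but their exons do not overlap in the annotation.

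Ovol1 (chromosome 19, 5549136 to 5560646, minus strand) encodes a zinc finger repressor that restrains the growth of committed progenitors, and it had the largest change of the 8. It was at 269.3, 247.9, 252.3 and 200.2 per Mb in WT 1 to 4, and at 112.1, 116.9, 109.4 and 117.1 in HdR 1 to 4. Each HdR library held well under the lowest WT value, that of WT 4. The log2 fold change was -1.08 ± 0.081 (adjusted p = 5.84e-06), the mean HdR level was 53% below that of WT, and 0.918% of the genes tested had a fold change as low or lower. Ovol1 was the other factor called against a fold of 1.2. WT 4 lay 0.3 of the way to the HdR mean, and without it the log2 fold change was -1.16. In the annotation an antisense transcript and a pseudogene on the plus strand overlap Ovol1 exons. The strand setting of the authors' processing was not given in the sources used here, so their reads could not be told apart from those of Ovol1.

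Both grainyhead-like factors fell. Grhl1 (chromosome 12, 24572283 to 24617391, plus strand), which supports desmosomal cadherin expression, was at 213.0, 196.9, 214.3 and 177.2 per Mb in WT 1 to 4 and at 147.4, 161.5, 146.3 and 153.1 in HdR 1 to 4. Its log2 fold change was -0.39 ± 0.056 (adjusted p = 5.49e-05). Grhl3 (chromosome 4, 135541888 to 135573630, minus strand), which is needed for barrier formation, was at 116.6, 96.8, 114.0 and 90.2 per Mb in WT 1 to 4 and at 83.5, 83.2, 78.2 and 88.0 in HdR 1 to 4. Its log2 fold change was -0.32 ± 0.078 (adjusted p = 0.0068), the weakest of the called factors. In both genes WT 4 was the lowest WT library, and for Grhl3 it came close to HdR 4, 0.7 of the way to the HdR mean, against 0.51 for Grhl1. Without WT 4 the differences were -0.45 for Grhl1 and -0.38 for Grhl3. Grhl2, the remaining family member, was at 79.8 ± 1.41 (SD, n = 4) per Mb in WT against 75.9 ± 3.04 in HdR, and its log2 fold change of -0.07 ± 0.042 did not pass the test (adjusted p = 0.168).

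Cebpa (chromosome 7, 35119293 to 35121928, plus strand) encodes a leucine zipper factor of the suprabasal layers. It was at 135.9, 126.0, 155.5 and 115.1 per Mb in WT 1 to 4 and at 102.9, 99.6, 87.9 and 98.2 in HdR 1 to 4. The groups were separate, with WT 3 the highest and WT 4 the lowest WT library. The log2 fold change was -0.44 ± 0.088 (adjusted p = 0.00298), and WT 4 lay 0.52 of the way to the HdR mean. Without WT 4 it was -0.51. An antisense transcript on the minus strand overlaps this single-exon gene. Cebpb, the family member that acts beside it in the epidermis, was lower too, at 354 ± 20.3 (SD, n = 4) per Mb in WT against 228 ± 12 in HdR (log2 fold change -0.63 ± 0.045, adjusted p = 1.35e-08). Its exons overlap those of Tmem189 on the other strand in the annotation.

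Maf (chromosome 8, 115682942 to 115707794, minus strand) encodes c-MAF, a large MAF factor of differentiating keratinocytes. It was at 94.1, 90.1, 85.7 and 101.7 per Mb in WT 1 to 4 and at 68.1, 70.8, 69.1 and 76.4 in HdR 1 to 4. Every HdR library was below every WT library, and here WT 4 was the highest library of all. Its log2 fold change was -0.38 ± 0.053 (adjusted p = 1.93e-05), and -0.34 without WT 4. Exons of Maf overlap an antisense transcript on the plus strand.

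Prdm1 (chromosome 10, 44437177 to 44528501, minus strand) encodes BLIMP1, a repressor of the outermost living layers that is also known from sebaceous and immune cells. It was at 54.2, 47.7, 64.9 and 46.4 per Mb in WT 1 to 4 and at 54.6, 64.7, 49.2 and 54.3 in HdR 1 to 4. The groups spanned nearly the same range, with 1 high library in each, WT 3 and HdR 2. The log2 fold change was 0.07 ± 0.12 (adjusted p = 0.684), with a 95% confidence interval of -0.21 to 0.35, the widest of the 8. Without HdR 2 it was -0.0066, so its direction rests on that library, and it was 0.0074 without WT 4, 0.02 without WT 2, 0.12 without HdR 3 and 0.16 without WT 3.

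Divided by the summed exon length of the annotation, the levels of the 8 factors can be set beside each other only roughly. That length includes exons of every isoform, used here or not, so the order is not one of transcript numbers. In WT, Zfp750 was highest at 91 ± 2.93 aligned bases per kb of exon per Mb, followed by Ovol1 at 69.5 ± 8.49 and Cebpa at 50.5 ± 6.51 (SD, n = 4). The ranges of Ovol1 and Cebpa over the WT libraries overlapped, at 57.4 to 77.2 and 43.7 to 59.0. Grhl3 and Grhl1 followed at 37.4 ± 4.63 and 36.2 ± 3.13 with overlapping ranges. Trp63 was at 24.6 ± 2.16, below every WT value of Grhl1. Maf and Prdm1 closed the order at 11.3 ± 0.824 and 9.55 ± 1.52, again overlapping. In HdR, Zfp750 remained the highest at 64.6 ± 2.58, while Ovol1, at 32.6 ± 1.09, stood between Cebpa at 36.9 ± 2.44 and Grhl3 at 29.8 ± 1.43. The HdR range of Ovol1 (31.4 to 33.6) overlapped both that of Cebpa (33.4 to 39.0) and that of Grhl3 (28.1 to 31.6), so these neighbours were not separate. The HdR ranges of Grhl1 (26.4 to 29.1) and Trp63 (25.4 to 28.6) overlapped, where in WT they were apart.

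**Figure D2:**
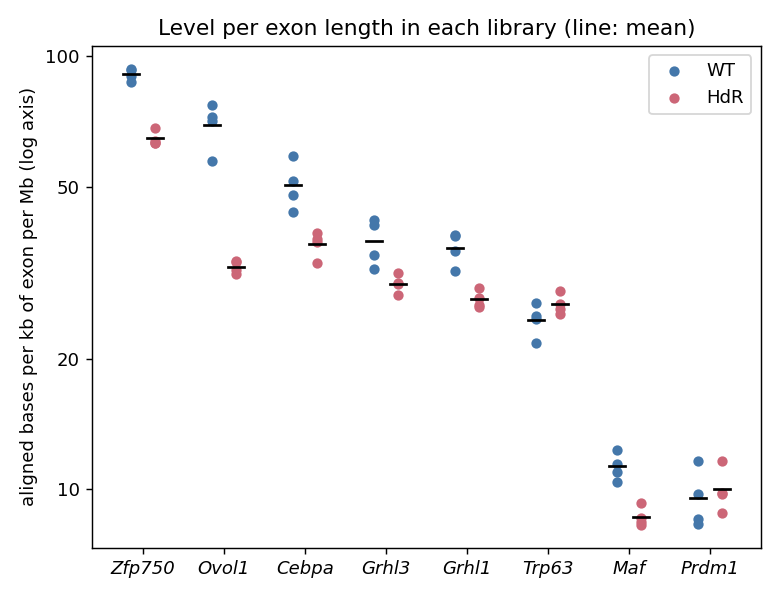
Level per exon length (aligned bases per kb of exon per Mb, log axis) of each factor in each WT (blue) and HdR (red) library, with lines at the means, ordered by the WT mean. Ovol1 stands above Cebpa in WT at 69.5 and, with overlapping libraries, below it in HdR at 32.6, and Trp63 sits below Grhl1 in WT but beside it in HdR.

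The factors also differed in how they varied within a genotype. In all 8 the SD of the level was larger in WT than in HdR, which held for 55.6% of all genes tested. That SD is not corrected for the level, and 6 of the 8 had a lower level in HdR. Relative to its mean, Zfp750 varied less in WT (SD 9.48 at a mean of 294) than in HdR (8.33 at 209). The median SD over the 8 was 10.5% of the mean in WT and 5% in HdR, against 6.43% and 5.82% over all genes tested. WT 4 was the lowest WT library for Grhl1, Grhl3, Ovol1, Zfp750, Prdm1 and Cebpa and the highest for Maf.

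Ratios within a library do not depend on depth scaling, apart from the pseudocount, and show whether 2 related factors changed unequally. Of the 4 ratios given here, the groups were separate in that of Zfp750 to Trp63. The log2 ratio of Zfp750 to Trp63 was 0.546, 0.365, 0.715 and 0.417 in WT 1 to 4 and -0.1, -0.062, -0.218 and -0.026 in HdR 1 to 4. Every HdR library thus held less Zfp750 relative to Trp63 than any WT library. The mean difference was -0.61 (p = 0.0286 in a two-sided exact permutation test, the lowest that its 70 regroupings can give, and 0.0714 adjusted over the 5 ratios computed). The ratio does not pass the threshold after adjustment.

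The remaining ratios had overlapping groups. The log2 ratio of Grhl3 to Grhl1 was -0.94 ± 0.068 in WT and -0.86 ± 0.073 in HdR (SD, n = 4), a difference of 0.08 (exact permutation p = 0.171, and 0.171 adjusted). That of Cebpa to Cebpb was -1.41 ± 0.11 and -1.22 ± 0.09, a difference of 0.19 (exact permutation p = 0.0857, and 0.107 adjusted). That of Ovol1 to Ovol2 was 5.59 ± 0.11 and 5.05 ± 0.44, a difference of -0.54 (exact permutation p = 0.0857, and 0.107 adjusted). Ovol2, which encodes a repressor that guards the epithelial state, was low in both groups. It was at 4.04 ± 0.517 (SD, n = 4) per Mb in WT against 2.56 ± 0.965 in HdR (log2 fold change -0.54 ± 0.17, adjusted p = 0.0178), with HdR 1 at 3.72 inside the WT range and HdR 4 at 1.41.

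**Figure D3:**
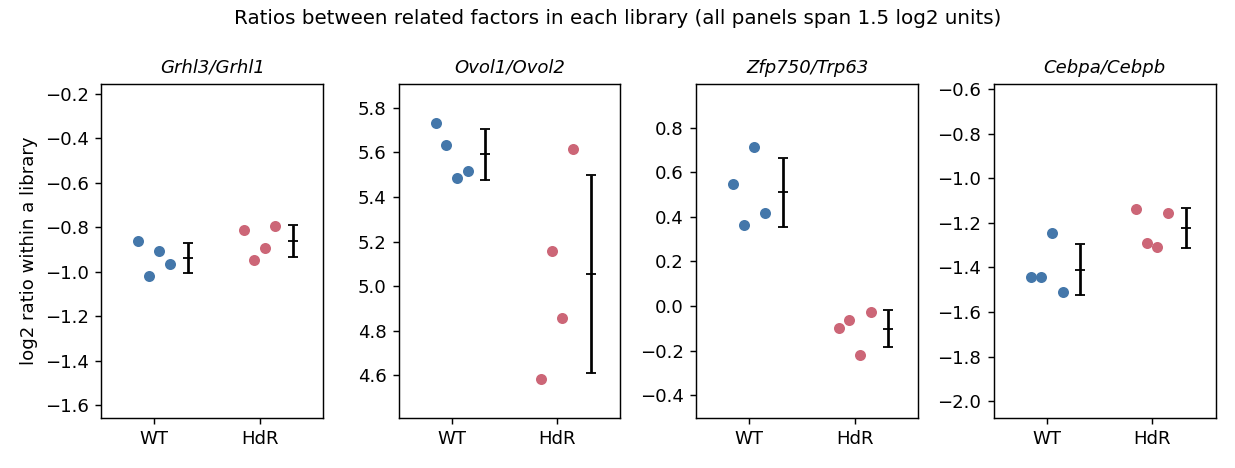
Log2 ratio of 2 related factors within each WT (blue) and HdR (red) library, with mean and SD as black bars, and every vertical axis spanning the same number of log2 units. The groups are separate for Zfp750/Trp63 and overlap for Grhl3/Grhl1, Ovol1/Ovol2 and Cebpa/Cebpb.

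Of 25 other epidermal factors, 14 were lower, 2 higher and 9 not called (56% lower, against 23.8% of all genes), with a median log2 fold change of -0.23. Beside Cebpb, those with the smallest p were Rora (-0.63 ± 0.052), which encodes a nuclear receptor, the Notch target Hes1 (-0.41 ± 0.048) and Tfap2c (-0.42 ± 0.054), which encodes an AP-2 factor of early epidermis. Rora went from 45.9 ± 1.93 to 29.3 ± 1.04 per Mb, and the limma adjusted p of these 3 was at most 9.52e-06. Klf4, whose product works with ZNF750 in late differentiation, fell from 620 ± 46.4 to 528 ± 26.6 per Mb (SD, n = 4, log2 fold change -0.23 ± 0.051, adjusted p = 0.00227), and its groups overlapped. Among those named after their values were seen, Pou2f3 (-0.97 ± 0.15), Hopx (-0.65 ± 0.15) and Dlx3 (-0.54 ± 0.11) were lower. Cebpd (0.35 ± 0.047) and Pou3f1 (0.24 ± 0.042) were the factors called higher. Against a fold of 1.2, 4 of the 25 were called lower and 0 higher, beside 4.58% and 2.89% of all genes.

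**Figure D4:**
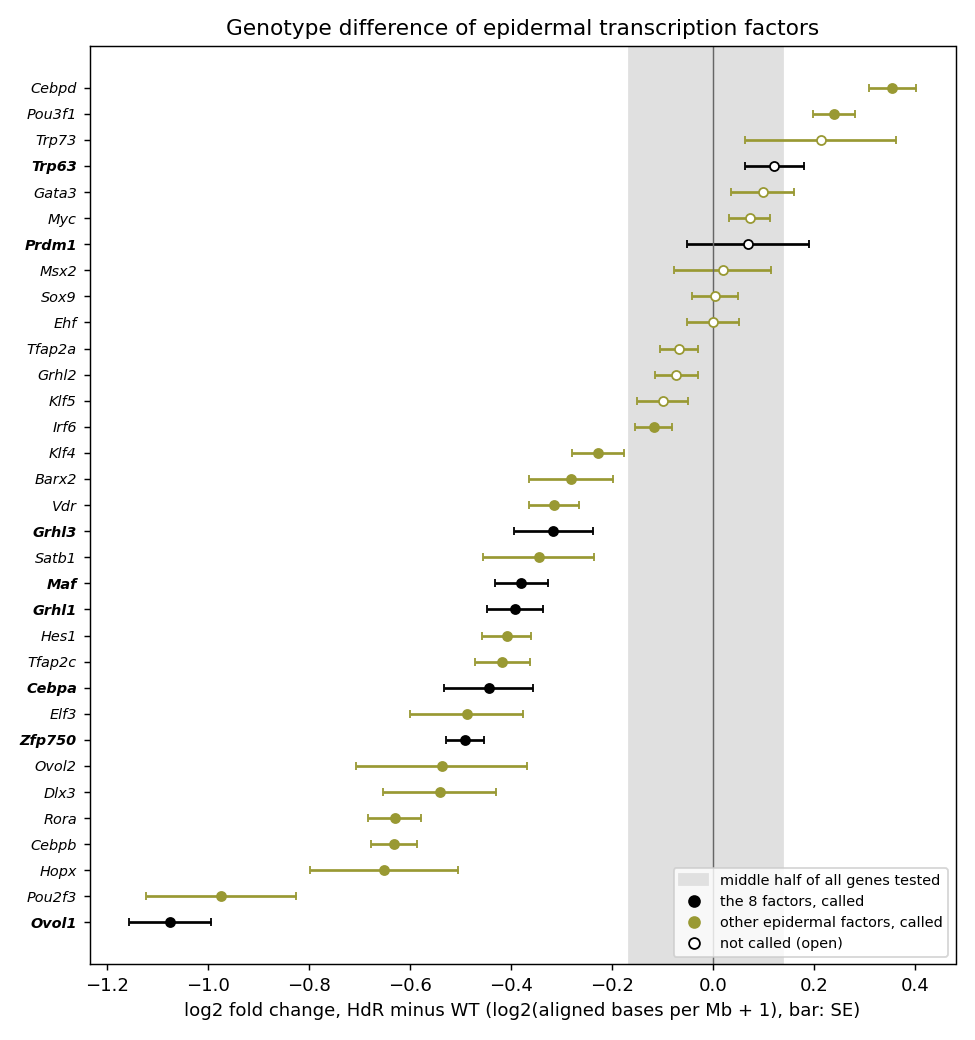
Log2 fold change (HdR minus WT, bars are SE) of the 8 factors (black, bold names) and 25 other epidermal factors (olive), with filled points called by limma and the quartile range of all genes tested shaded. Ovol1 is the lowest of those plotted, Trp63 and Prdm1 are open points inside the shaded range, and Cebpd is the highest.

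Genes for proteins that work with p63 and ZNF750 on chromatin were called at shares near or below those of all genes, with 3 of 12 higher (25%, against 21.2%), 1 lower (8.33%, against 23.8%) and 8 not called, and a median of 0.03. Ctbp2, which encodes a corepressor that binds ZNF750, rose from 44.3 ± 0.976 to 57.4 ± 2.69 per Mb (SD, n = 4, log2 fold change 0.36 ± 0.047, adjusted p = 9.59e-06). Its relative Ctbp1 was at 180 ± 2.49 and 181 ± 2.13 and was not called (adjusted p = 0.855). Smarca4 (0.19 ± 0.034) and Hdac1 (0.13 ± 0.038) were higher and the demethylase gene Kdm1a (-0.18 ± 0.037) was lower. None of these 4 calls remained against a fold of 1.2.

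Genes listed as basal and under p63 control, whether activated or repressed, went both ways, with 10 of 19 higher, 6 lower and 3 not called. Of them 52.6% were higher, against 21.2% of all genes, and 31.6% lower, against 23.8%. The median was 0.10. Adhesion genes led the higher ones: Fermt1, which encodes the integrin activator kindlin-1, rose from 60.7 ± 7.57 to 118 ± 2.05 per Mb (SD, n = 4, log2 fold change 0.95 ± 0.071). The integrin genes Itga3 and Itgb4 and the laminin gene Lamb3 were higher by 0.53 ± 0.042, 0.43 ± 0.041 and 0.37 ± 0.035 (limma adjusted p of 4.5e-07 or lower for all 4). The lower genes, named after their values were seen, were Perp, Jag2, Ripk4, Fgfr3, Fgfr2 and Igfbp3, from -0.34 ± 0.040 for Perp, a desmosomal gene, to -0.11 ± 0.036 for Igfbp3. Against a fold of 1.2 there were 4 higher and 0 lower, beside 2.89% and 4.58% of all genes. With upper-quartile scaling 10 were higher and 4 lower. The basal keratin genes of the list, named after their values were seen, changed little. Krt5 was called higher (0.10 ± 0.036, limma adjusted p = 0.0247) with overlapping groups, and Krt14 (-0.04 ± 0.047) and Krt15 (0.03 ± 0.086) were not called.

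Among 15 genes tied to grainyhead factors and epithelial junctions, 6 were lower, 1 higher and 8 not called (40% lower, against 23.8% of all genes, and 6.67% higher, against 21.2%), with a median of -0.26. The desmosomal cadherin genes Dsg1a, of which GRHL1 is a known activator, and Dsg1b fell from 251 ± 27.5 to 136 ± 11.2 and from 352 ± 32.1 to 249 ± 14.7 per Mb (SD, n = 4). Their log2 fold changes were -0.88 ± 0.092 and -0.49 ± 0.066 (limma adjusted p = 0.000118 and 0.000122), and as near copies of each other they may share reads. Prom2 (-0.64 ± 0.087) and the splicing regulator gene Esrp1 (-0.28 ± 0.040) were lower too. Cdh1, the E-cadherin gene, named after its values were seen, was at 903 ± 18.5 and 872 ± 14.1 per Mb and was not called (adjusted p = 0.2).

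Suprabasal and cornified envelope genes, the usual readout of these factors, were lower in 13 of 19 tested genes (68.4%, against 23.8% of all genes), with none higher (against 21.2%), 6 not called and a median of -0.66. Krt10 was at 194.9 to 219.0 per Mb in WT and 45.4 to 53.2 in HdR. Krt1, Hrnr and Abca12 were at -1.4 ± 0.076, -1.46 ± 0.21 and -0.26 ± 0.051. The number lower ran from 10 to 17 when each library was left out and was 5 against a fold of 1.2 (which 4.58% of all genes passed downwards), and 1 gene was called higher without WT 3 and with limma-voom. Involucrin (Ivl), named after its values were seen, was not called in the main test, at 20.8 ± 5.23 and 26 ± 2.02 per Mb (SD, n = 4, log2 fold change 0.33 ± 0.15, adjusted p = 0.118). It had the only positive log2 fold change of the 19 tested genes, and its highest WT library was WT 3 at 28.2 per Mb. In these bulk cultures fewer differentiating cells and less of a transcript per cell cannot be told apart, for these genes as for the 8 factors.

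**Figure D5:**
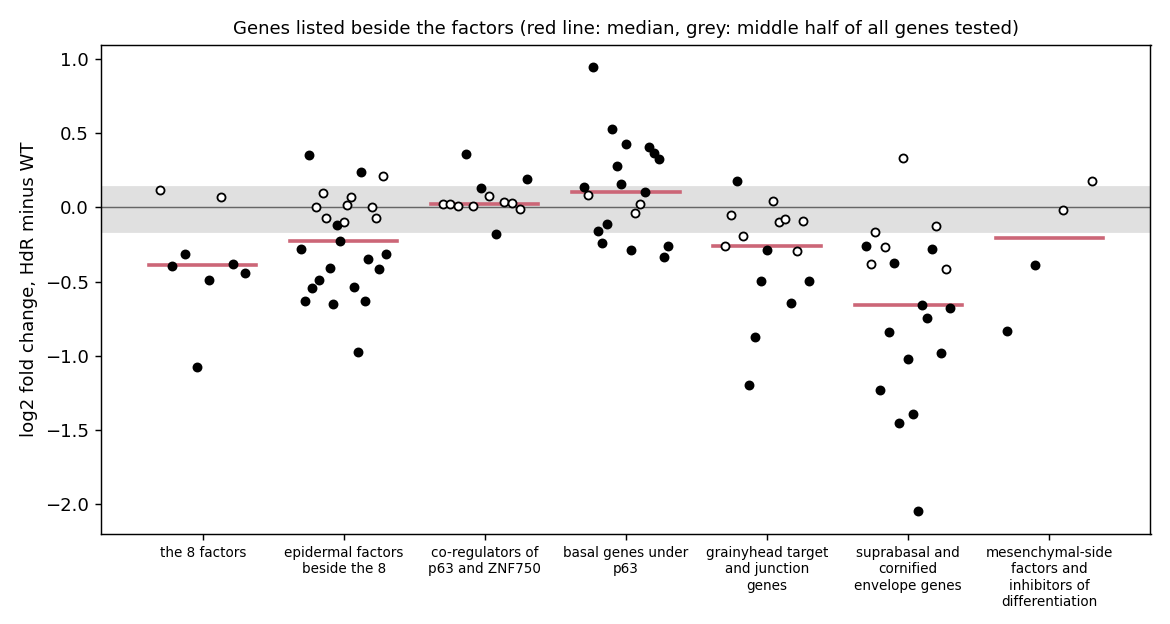
Log2 fold change (HdR minus WT) of the 8 factors and of each tested gene in the 6 gene lists, filled where called by limma, with red lines at the medians and the quartile range of all genes tested shaded. The medians run from -0.66 for the suprabasal genes and -0.39 for the 8 factors to 0.10 for the basal genes.

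OVOL factors are known repressors of mesenchymal regulators, and most of those stayed near 0 in both groups. Of 10 listed mesenchymal-side and inhibitor-of-differentiation genes only 4 passed the filter, with 2 lower and 0 higher (beside 23.8% and 21.2% of all genes). Zeb1 was at 0.031 ± 0.036 and 0.019 ± 0.039 per Mb (WT and HdR, SD, n = 4). Snai2, a factor of basal keratinocytes as well, was at 103 ± 2.73 and 101 ± 3.83 per Mb (log2 fold change -0.02 ± 0.040, 0.02 with upper-quartile scaling and 0.0079 with library totals only). Vim was at 2.69 ± 0.358 and 3.5 ± 2.13. Id1 and Id3, which encode inhibitors of helix-loop-helix factors, fell from 13.3 ± 1.04 to 7.01 ± 0.556 and from 38.7 ± 2.7 to 29.4 ± 3.17 per Mb (SD, n = 4, limma adjusted p = 6.81e-07 and 0.000296).

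Markers of other cell types that express some of these factors ranged from 0 to abundant, and the summed levels of the melanocyte, sebocyte and adipocyte, and endothelial lists did not overlap between the groups. Among all genes tested, 23.8% were lower and 21.2% higher, and 41.1% had groups that did not overlap, so single calls here are common. Of 8 markers of Langerhans, T and myeloid cells, Cd207, Lyz2 and Adgre1 were at 0 in every library, and the summed level of the list was 4.5 to 7.05 per Mb in WT and 3.42 to 4.89 in HdR, most of it from Itgam, the 1 gene tested, which was lower. Of 6 sebocyte and adipocyte markers the summed level was 667 to 754 in WT and 896 to 981 in HdR, nearly all of it from Fasn and Scd1, lipid synthesis genes that keratinocytes also express and that were both higher, while Mc5r, Plin1 and Adipoq averaged at most 0.0267 in either group. Fibroblast markers summed to 2.3 to 4.39 and 2.47 to 6.29, and Thy1, the 1 gene tested, was lower. Of those below the filter, Col1a1, Col1a2, Col3a1, Pdgfra and Pdgfrb had higher means in HdR and Dcn a lower one. The collagen genes were highest in HdR 2, with Col1a1 at 1.42 and Col3a1 at 0.844 per Mb. Endothelial markers summed to 0.268 to 0.627 and 1.04 to 1.46, none of them above the filter. Hair follicle markers summed to 170 to 204 and 165 to 183, most of it from Sox9, and 1 of 3 tested was lower. Of 8 melanocyte markers 7 were tested and 6 were lower, and their summed level was 51.9 to 59.9 in WT and 27.1 to 29.5 in HdR. The part of these cell type markers in the differences of the 8 factors was not tested.

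Likeness is given as a description, since genes that differ between genotypes in the same direction tend to correlate over the libraries. The gene most like each factor over the 8 libraries was found by Pearson's r of log2 levels among 11359 candidates. For Ovol1 it was Cyp2b10 (r = 0.9987), for Zfp750 Icosl (0.9971), for Grhl1 Chp1 (0.996) and for Cebpa Serpinb12 (0.9921). For Maf it was Anxa6 (0.9884) and for Grhl3 Rab11a (0.9856). Between 385 and 1274 genes had an r over 0.9 with each of these 6. Trp63 and Prdm1, which did not separate the genotypes, had 69 and 30 such genes, and the most alike were Bdp1 (0.9785) and Lce3d (0.9624), the latter a gene of the late cornified envelope.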

How the data were processed

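RNA was taken straight from the culture plates and turned into Illumina libraries with a NEBNext Ultra II kit, per the labels' protocols. Reads were placed on GRCm38, per the submitters' processing notes. The aligner, counter, annotation, strand setting and filters were not given in the sources used here. The authors deposited unscaled signal: for each gene, its coverage as a whole number of aligned bases. This was read from the values, since the commonest non-zero value was 302 (2 reads of 151 bases) and of the non-zero values below 10 such steps only 16.9% were exact multiples. The values are not counts, so the count model planned as an option was not used, and no counting interval or floor is given. Longer genes gather more bases.

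Each library was scaled by trimmed-mean (TMM) factors (30% of log ratios and 5% of levels trimmed at each end). Genes with a mean of at least 1 per Mb were fitted on log2(value + 1) with limma 3.58.1 in R 4.3.3 (trend, robust, statmod 1.5.0), two-sided, with no factor but genotype. The calculation was tested on simulated data. Positions and exon lengths came from GENCODE vM21 (GRCm38), which held 19163 of the table's symbols. Figures used Python 3.11.15 and matplotlib 3.10.9.

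The members, gene lists and tests were chosen with earlier results of these data known. The text names the 8 factors, Klf4, Ovol2, Grhl2, Cebpb, Ctbp1, up to 4 genes of smallest p per list, and 1 most alike gene per factor. Other names are marked. Some listed items, and 1 of the 5 ratios computed, are not reported here. Alternatives were other scalings (median-of-ratios, upper-quartile, library totals), no filter and a stricter one (5 per Mb in 4 libraries), pseudocounts of 0.1 and 5, limma-voom with sample weights on read-pair equivalents, a fold of 1.2, the replicate number as a block, and each library left out. Leaving out HdR 4 and WT 4 together was added after seeing the data.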

Additional observations from a re-analysis of the deposited data

Results flagged for a closer look

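In 80 groups of 4 libraries (the named genes and the 4 ratios, in each genotype), 8 held 1 library whose distance from the nearest other, as a share of the group's range, exceeded Dixon's 95% limit. Chance flags about 1 group in 20. None of the 8 was one of the 8 factors or a ratio. WT 4 stood apart from WT 1 to 3 in 4 of them. It had 218 per Mb of Smarca4 (the others 208 to 209), 667 of Itga3 (588 to 597), 572 of Lamb3 (532 to 533) and 304 of Dsg1b (366 to 370). In each of these it lay on the side of the HdR libraries. HdR 2 had 54.8 of Tfap2c (50.3 to 50.7) and 8.37 of Hrnr (9.95 to 10.1). HdR 3 had 119 of Dsg1a (140 to 143) and 107 of Snai2 (98.8 to 99.97).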

How the results depend on the processing

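Ovol1 and Zfp750 kept their direction and their call under each of the 19 alternatives run, with log2 fold changes of -1.18 to -1.02 and -0.54 to -0.45. Grhl1, Grhl3, Maf and Cebpa kept theirs under 18 of them, in ranges of -0.46 to -0.35, -0.41 to -0.26, -0.42 to -0.34 and -0.52 to -0.37. They were not called against a fold of 1.2 (adjusted p = 0.17, 1, 0.191 and 0.295), where the number of factors lower was 2 instead of 6, since that test asks for a larger change. The number lower was 6 whichever library was left out, and without HdR 4 and WT 4 together. The number higher was 0, and 0 to 1 with each library left out. It was 1, Trp63, with upper-quartile scaling and without WT 2 (the cause was not tested). With each library left out Prdm1 ran from -0.0066 (without HdR 2) to 0.16 and Vim from -0.10 (without HdR 2) to 0.39, and Snai2 had 0.021 with upper-quartile scaling and 0.0079 with library totals only, none of them called. The difference in the ratio of Ovol1 to Ovol2 was -0.78 with a pseudocount of 5 (exact permutation p = 0.0286) and -0.73 to -0.38 with each library left out (p = 0.0286 without HdR 4). That of Cebpa to Cebpb was 0.15 to 0.24 (exact permutation p = 0.0286 without WT 3). With the replicate number as a block, the difference of Zfp750 to Trp63 (-0.61) had exact p = 0.125, the smallest that 4 pairs allow. Equal numbers share only a label: the deviations of same-numbered libraries correlated at 0.028, -0.068, -0.222 and 0.02, and the block gave 2519 genes lower and 2236 higher. Against a fold of 1.2 the lists counted 4 lower of 25 other factors (14 in the main test) and 0 higher (2), 0 of 12 co-regulators in either direction (3 and 1), 4 higher and 0 lower of 19 basal genes (10 and 6), 0 higher of 15 junction genes (1), 5 lower of 19 suprabasal genes (13) and 1 lower of the inhibitor list (2). In that test 4.58% of all genes were lower and 2.89% higher. Of junction genes 0 were higher without HdR 4 and WT 4, and of suprabasal genes 1 was higher with limma-voom and without WT 3. Without the filter Ovol2 missed its call (adjusted p = 0.0502, more genes tested). Depth was lower in every HdR library and cannot be told apart from genotype.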
